A study of Mus musculus with 12 samples.

Results

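Hmgcs1, Idi1, Fdft1, Sqle, Lss, Cyp51 and Dhcr7 encode 7 enzymes of cholesterol synthesis. They were taken by symbol from the 40853 gene symbols of the deposited tables of microglia and astrocytes, and all 7 passed the filter on low counts in every comparison, 17294 genes being tested across all 12 libraries. The libraries came from microglia and astrocytes sorted by flow cytometry out of whole brains of mice aged 8 to 9 weeks. The mice were labelled WT (wild type) or KO (knockout), the targeted gene being Kpna4, which encodes a nuclear import receptor of the importin α family. Every mouse, WT included, had been injected intraperitoneally with lipopolysaccharide (LPS, an inflammatory molecule from bacteria) at 1 mg/kg, 20 h before the brain was taken, so each level below is a level after LPS. The 4 groups, WT and KO microglia and WT and KO astrocytes, had 3 libraries each, and 6 animals, 3 of each genotype, gave 1 library of each cell type. The labels do not say whether the deletion of Kpna4 is limited to some cells. Untreated mice were not analysed here.

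Cholesterol synthesis starts from acetyl-CoA and runs through mevalonate and the isoprenoid diphosphates to squalene, which is closed to lanosterol and then trimmed and reduced to cholesterol. The genes of the route are controlled together by the SREBP transcription factors, encoded by Srebf1 and Srebf2: when membrane sterol is low, the escort protein Scap carries SREBP to the Golgi for cleavage, and Insig proteins hold it in the endoplasmic reticulum when sterol is high. SREBP binds sterol regulatory elements and works together with NF-Y, which binds CCAAT boxes, and Sp1. Plasma lipoproteins hardly cross the blood-brain barrier, so the brain makes its own cholesterol, and astrocytes are known to export it to other cells on particles that contain apolipoprotein E.

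The sequences upstream of the start sites are shown because the members are known as targets of 1 regulator and because their levels differed together between the cell types. The RefSeq table of promoters (build GRCm38.p6) held 5 of the 7 members, 4 with 1 window and Dhcr7 with 3. Each line gives the 250 bases before an annotated start, 5′ to 3′ on the strand of the gene. Capitals mark matches, on either strand, to the CCAAT box (CCAAT, written ATTGG on the other strand) and to a core of the sterol regulatory element (CACNCCAC). Of the Dhcr7 windows the only one with a CCAAT match is printed.
Hmgcs1, chr13:119690101-119690350, plus strand: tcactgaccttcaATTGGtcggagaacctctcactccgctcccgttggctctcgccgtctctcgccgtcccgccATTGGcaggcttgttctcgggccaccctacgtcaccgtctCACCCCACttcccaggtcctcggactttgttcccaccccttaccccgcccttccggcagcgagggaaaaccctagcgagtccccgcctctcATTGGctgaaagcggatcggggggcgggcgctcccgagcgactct
Idi1, chr13:8885356-8885605, plus strand: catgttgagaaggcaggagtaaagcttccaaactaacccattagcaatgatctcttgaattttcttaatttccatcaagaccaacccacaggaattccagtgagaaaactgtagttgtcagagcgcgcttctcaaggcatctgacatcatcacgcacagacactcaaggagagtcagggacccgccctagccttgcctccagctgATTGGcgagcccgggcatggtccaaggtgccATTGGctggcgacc
Lss, chr10:76531355-76531604, plus strand: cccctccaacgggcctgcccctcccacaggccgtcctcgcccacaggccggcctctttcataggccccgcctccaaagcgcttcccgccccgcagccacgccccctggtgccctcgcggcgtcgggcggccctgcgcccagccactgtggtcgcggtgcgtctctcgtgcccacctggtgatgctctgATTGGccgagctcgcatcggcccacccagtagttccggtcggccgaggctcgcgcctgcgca
Cyp51, chr5:4104698-4104947, minus strand: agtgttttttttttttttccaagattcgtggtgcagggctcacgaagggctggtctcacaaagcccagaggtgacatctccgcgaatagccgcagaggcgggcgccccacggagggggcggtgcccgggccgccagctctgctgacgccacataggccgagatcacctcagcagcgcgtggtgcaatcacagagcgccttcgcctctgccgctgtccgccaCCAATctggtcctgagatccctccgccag
Dhcr7, chr7:143829964-143830213, plus strand: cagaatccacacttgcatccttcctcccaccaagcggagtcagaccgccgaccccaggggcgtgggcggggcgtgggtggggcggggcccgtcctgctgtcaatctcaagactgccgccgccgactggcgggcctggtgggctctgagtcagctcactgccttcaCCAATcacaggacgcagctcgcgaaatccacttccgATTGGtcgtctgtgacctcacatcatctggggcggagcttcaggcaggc

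Over the whole windows, which run on for 50 bases past the start, each of the 5 genes had at least 1 CCAAT match. Hmgcs1 had 4 matches, Idi1 had 2, Lss and Cyp51 had 1 each, and the third Dhcr7 window had 2. By window, 5 of the 7 windows of these genes held a CCAAT match, against 37.4% of all 32851 promoter windows of the table. Sp1 boxes (GGGCGG, either strand) were in 6 of the 7 windows, with at least 1 window for each of the 5 genes, and in 35.7% of all windows. The sterol regulatory element core matched in 1 of the 7 windows, that of Hmgcs1, where CACCCCAC begins 136 bases before the start, and in 6.24% of all windows. Among 39 other listed genes of sterol and lipid metabolism with a window, 23 held a CCAAT match, 26 an Sp1 box and 2, Acat2 and Insig1, the core. These last are counts of genes, not of windows, so the shares of all windows are no background for them. These are letter matches in a fixed window and were not tested as binding sites.

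All 7 enzymes were higher in astrocytes than in microglia, from 2.05-fold for Dhcr7 to 20.6-fold for Sqle, and none passed the test between KO and WT in either cell type. Their summed level was 95.1 ± 32.0 CPM (counts scaled to a common library total, SD, n = 3) in microglia WT, 97.8 ± 18.7 CPM in microglia KO, 459.4 ± 39.1 CPM in astrocytes WT and 498.6 ± 45.5 CPM in astrocytes KO. The 7 passed edgeR's quasi-likelihood test between the cell types at an adjusted p under 0.05 and were at least 2-fold higher in astrocytes. That test called 64.6% of all genes tested in either direction and 36.4% higher in astrocytes, and 32.0% were called at least 2-fold higher. The median log2 fold change was 2.59 over the 7 enzymes and 0.19 over all genes tested. With scaling to library totals alone these medians were 2.30 and -0.09, so that the distance between them was nearly kept. In bulk libraries a lower share of cells that make a transcript and less of it in each cell cannot be told apart.

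**Figure D1:**
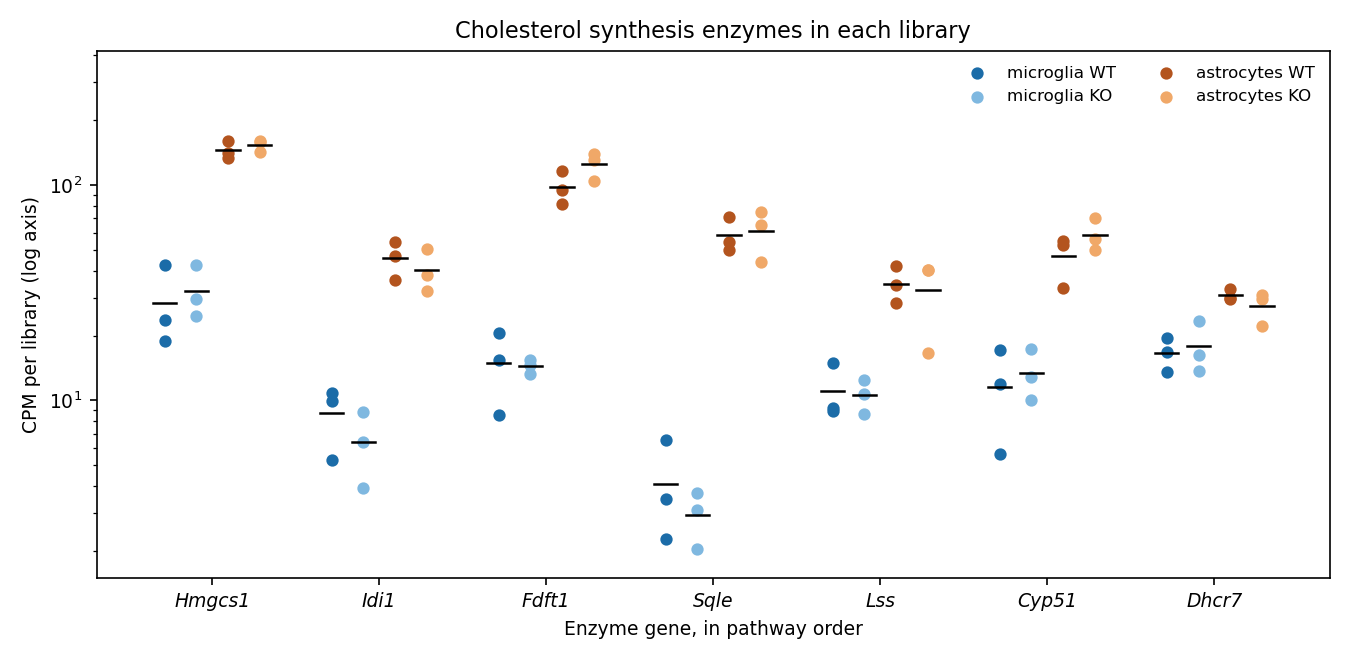
Level of each enzyme gene (CPM, log axis) in every library, in pathway order, with a point per library and a bar at the mean of each group of 3. The astrocyte points lie above all microglia points for every gene but Dhcr7, while KO and WT points overlap in both cell types.

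Hmgcs1 encodes the cytosolic HMG-CoA synthase, which makes the substrate of the committed step of the mevalonate pathway. In microglia it was at 18.9, 23.5 and 42.4 CPM in the WT libraries and at 24.5, 29.5 and 42.6 CPM in the KO libraries. In astrocytes it was at 160.3, 141.4 and 133.0 CPM in WT and at 159.7, 141.9 and 158.5 CPM in KO. The astrocyte libraries lay within 1.2-fold of each other and the lowest was 3.12-fold above the highest microglia library. Astrocytes were 6.04-fold higher (log2 fold change 2.59, SE 0.21, edgeR's quasi-likelihood test, adjusted p = 5.98e-08).

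Idi1 encodes isopentenyl-diphosphate isomerase, which interconverts the pair of isoprenoid building blocks. Its microglia values were 5.28, 10.9 and 9.97 CPM in WT and 8.82, 3.93 and 6.41 CPM in KO. Its astrocyte values were 54.3, 46.7 and 36.4 CPM in WT and 50.7, 32.3 and 38.0 CPM in KO. No library of one cell type reached the range of the other, and the difference was 7.05-fold (log2 fold change 2.82, SE 0.25, edgeR adjusted p = 1.62e-07). The estimated counts of Idi1 were not whole numbers, so part of its reads was divided with other genes. The uncertainty that this adds to its level was not measured.

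Fdft1 encodes squalene synthase, the first enzyme committed to sterols, which joins farnesyl diphosphate units to squalene. Microglia held 15.5, 8.52 and 20.6 CPM in WT and 14.5, 15.4 and 13.2 CPM in KO. Astrocytes held 116.6, 81.7 and 95.2 CPM in WT and 130.3, 139.7 and 104.7 CPM in KO. Again the cell types did not overlap, the lowest astrocyte library standing 3.96-fold above the highest microglia library. The fitted difference was 9.25-fold (log2 fold change 3.21, SE 0.23, edgeR adjusted p = 1.71e-08).

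Sqle encodes squalene epoxidase, which adds the first oxygen to squalene and is regarded as a further rate-limiting step of the route. Among the 7 it had the lowest level in microglia, 2.26, 3.50 and 6.54 CPM in WT and 2.04, 3.10 and 3.72 CPM in KO, from only 21 to 86 counts per library. In astrocytes it was at 54.6, 49.9 and 70.8 CPM in WT and at 65.0, 44.1 and 75.0 CPM in KO. The microglia mean was 5.89% of the astrocyte mean, and the lowest astrocyte library exceeded the highest microglia library 6.74-fold. This was the widest difference of the 7 enzymes, 20.6-fold with a 95% confidence interval of 13.9 to 30.6 (log2 fold change 4.37, SE 0.27, edgeR adjusted p = 2.92e-09). Of all genes tested, 13.0% had a log2 fold change towards astrocytes at or above that of Sqle.

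Lss encodes lanosterol synthase, which closes the squalene epoxide to the first sterol. Its microglia levels were 9.198, 8.88 and 15.0 CPM in WT and 10.8, 8.62 and 12.4 CPM in KO. Its astrocyte levels were 28.3, 41.9 and 34.4 CPM in WT and 40.4, 16.7 and 40.2 CPM in KO. Astrocyte KO library 2 was low and came within 1.11-fold of the highest microglia library, microglia WT library 3. The difference was 3.72-fold (log2 fold change 1.90, SE 0.24, edgeR adjusted p = 7.55e-06).

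Cyp51 encodes the lanosterol demethylase of the endoplasmic reticulum. It was at 5.66, 11.9 and 17.2 CPM in microglia WT and at 12.9, 10.04 and 17.3 CPM in microglia KO. Astrocyte libraries gave 54.8, 33.3 and 52.4 CPM in WT and 56.1, 50.1 and 69.9 CPM in KO. The ranges were apart, the lowest astrocyte library being 1.93-fold above the highest microglia library. Astrocytes were 5.13-fold higher (log2 fold change 2.36, SE 0.25, edgeR adjusted p = 1.1e-06).

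Dhcr7 encodes 7-dehydrocholesterol reductase, which makes cholesterol in the final step of 1 branch of the pathway. Its levels were the closest between the cell types, 13.5, 16.8 and 19.6 CPM in microglia WT and 16.3, 13.7 and 23.5 CPM in microglia KO. Astrocytes had 33.0, 29.8 and 29.5 CPM in WT and 30.9, 22.2 and 29.5 CPM in KO. Microglia KO library 3, the highest of its cell type, overlapped astrocyte KO library 2, the lowest of the other, and the ratio of that pair was 0.947. The fold change was 2.05 (log2 fold change 1.04, SE 0.20, edgeR adjusted p = 0.000338). The microglia mean amounted to 59.1% of the astrocyte mean, against 5.89% to 32.1% for the other 6 enzymes. Within a genotype its call was the least firm: in WT the log2 fold change was 1.06 with adjusted p = 0.00588, but 0.92 (adjusted p = 0.0645) without WT animal 1 and 0.96 (adjusted p = 0.0624) without WT animal 2. In KO it was 1.01 with an edgeR adjusted p = 0.00749, but it was not called with scaling to library totals (0.63) or without WT animal 2 (0.73), KO animal 1 (0.64) or KO animal 2 (0.64).

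For 6 of the 7 enzymes every astrocyte library was above every microglia library, as was the case for 21.7% of all genes tested. The cell type difference was present in each genotype taken alone. In WT all 7 were called, with log2 fold changes of 1.06 to 4.0, where 48.8% of all genes were called. In KO all 7 were called, with log2 fold changes of 1.01 to 4.74, where 52.0% were. Ordered by group mean, both microglia groups stood below both astrocyte groups for each of the 7. Neighbours in that order within a cell type overlapped for every gene, and the step between the cell types was free of overlap for all but Dhcr7.

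Per kilobase of exon, which allows levels of different genes to be compared, Hmgcs1 was the highest of the 7 in both cell types, at 8.68 CPM per kb in microglia and 42.8 CPM per kb in astrocytes. In astrocytes Fdft1 (30.1 CPM per kb) and Sqle (21.7 CPM per kb) followed, then Idi1 (14.2), Cyp51 (13.4), Dhcr7 (8.80) and Lss (7.21 CPM per kb). In microglia the order was different: Dhcr7 was the next after Hmgcs1 with 5.20 CPM per kb, and Sqle was the last with 1.28 CPM per kb. Fdft1 (3.95), Cyp51 (3.18), Idi1 (2.49) and Lss (2.32 CPM per kb) lay between them. On this scale Sqle was the third in astrocytes and the last in microglia. Lengths were those of the exons of each gene in GENCODE M21.

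**Figure D2:**
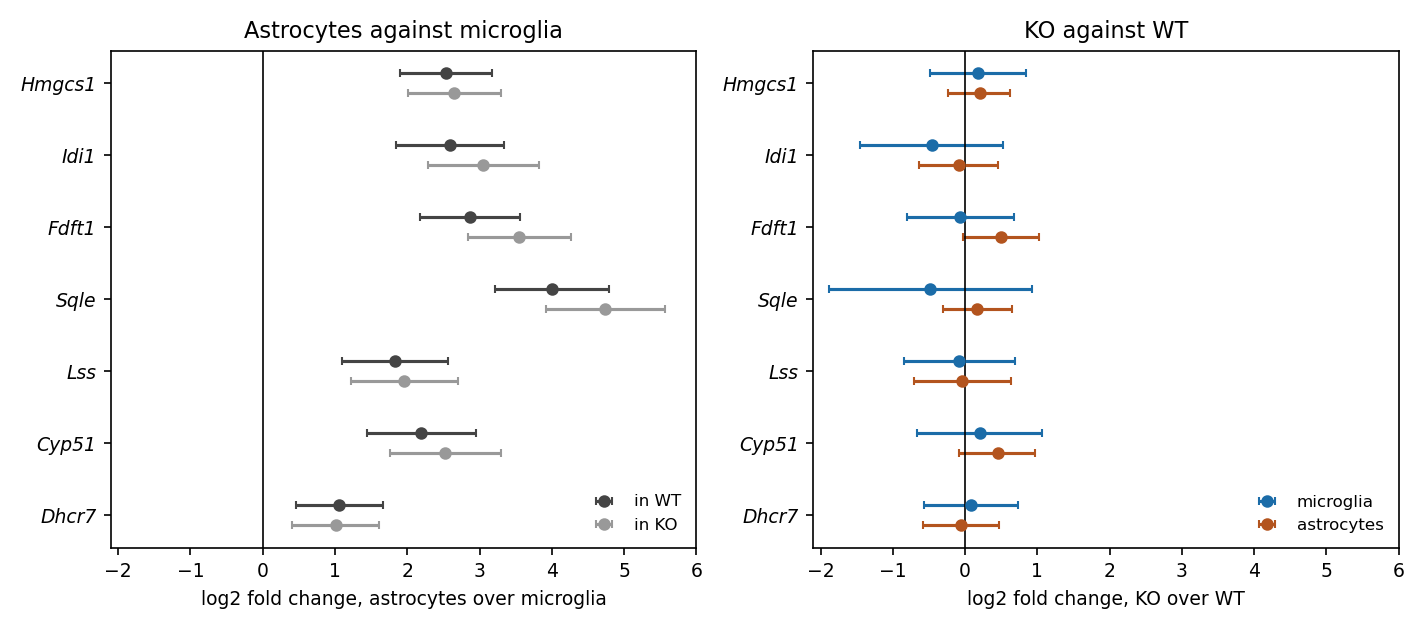
Log2 fold changes of the 7 enzymes with 95% confidence intervals, on the left for astrocytes over microglia in each genotype and on the right for KO over WT in each cell type. On the left all intervals lie above 0, from 1.01 to 4.74 in the point estimates, and on the right every interval includes 0.

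Between KO and WT microglia the 7 enzymes did not pass the test, and their log2 fold changes ran from -0.48 to 0.20. edgeR's quasi-likelihood test called 0% of the 14191 genes tested in microglia, and 7.42% had an unadjusted p under 0.05, none of them one of the 7. DESeq2 called 41 genes in microglia and again none of the 7. The KO over WT log2 fold change was 0.18 (SE 0.31) for Hmgcs1, -0.46 (SE 0.46) for Idi1, -0.07 (SE 0.35) for Fdft1 and -0.48 (SE 0.65) for Sqle. It was -0.08 (SE 0.36) for Lss, 0.20 (SE 0.40) for Cyp51 and 0.08 (SE 0.30) for Dhcr7, with edgeR adjusted p of 0.857 to 0.981 over the 7. KO and WT libraries overlapped for each of them, where 13.1% of all genes had no overlap. The precision was limited: the 95% confidence interval of Hmgcs1 ran from -0.49 to 0.84 and that of Sqle from -1.89 to 0.92. A difference of any size within these intervals is compatible with the data, and the smallest difference that could be detected was not computed.

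In astrocytes the KO over WT differences were also within the spread of the libraries. edgeR called 0% of the 15755 genes tested, 2.37% had an unadjusted p under 0.05 and DESeq2 called 4 genes, and none of these genes was one of the 7. The largest values were those of Fdft1, 0.50 (SE 0.24, unadjusted p = 0.0621 by edgeR), and Cyp51, 0.45 (SE 0.24, unadjusted p = 0.0877). Hmgcs1 stood at 0.20 (SE 0.19), Sqle at 0.17 (SE 0.22), Lss at -0.04 (SE 0.30), Dhcr7 at -0.06 (SE 0.24) and Idi1 at -0.09 (SE 0.25). The adjusted p was 0.999 for all 7. KO and WT libraries overlapped for every enzyme, against 8.13% of all genes without overlap.

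The genotype effect did not differ detectably between the cell types for any of the 7. Astrocyte minus microglia differences of the log2 fold changes were 0.74 (SE 0.48) for Sqle, 0.68 (SE 0.43) for Fdft1, 0.46 (SE 0.47) for Idi1 and 0.33 (SE 0.48) for Cyp51. They were 0.13 (SE 0.47) for Lss, 0.11 (SE 0.40) for Hmgcs1 and -0.05 (SE 0.39) for Dhcr7. The smallest edgeR adjusted p among them was 0.886. The interaction contrast called 0% of all genes by edgeR, with 6.37% at an unadjusted p under 0.05 and none of the 7 among them, and DESeq2 called 62 genes but none of the 7.

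Kpna4 itself is no check of the labels here, since the deleted part is not given and each count covers the entire gene. It was at 67.9, 96.4 and 89.0 CPM in microglia WT and at 78.6, 68.5 and 59.8 CPM in microglia labelled KO (log2 fold change -0.31, edgeR adjusted p = 0.778). In astrocytes it was at 40.2, 51.2 and 57.6 CPM in WT and at 69.0, 43.8 and 80.2 CPM in those labelled KO (0.47, adjusted p = 0.999). The sorted types carried their own markers: 8 astrocyte markers made up 1.48% to 1.98% of the counts in astrocytes and 0.0318% to 0.0698% in microglia, and 8 microglia markers 1.55% to 1.95% in microglia and 0.0155% to 0.0568% in astrocytes. Summed, the 8 astrocyte markers stood in microglia at 2.40% of their astrocyte level. The part of astrocyte RNA in the microglia levels of the 7 enzymes was not tested. Markers of some other cells were higher in the astrocyte libraries as well: the 4 mural cell markers took 0.0189% to 0.0294% of the counts there and 0.000291% to 0.00243% in microglia, and the 7 neuron markers 0.00709% to 0.0138% and 0.000962% to 0.00233%. The 4 markers of oligodendrocyte precursors took 0.00237% to 0.0064% and 0.000368% to 0.00156%. The ependymal gene Foxj1 was at 90.3 to 237.6 CPM in astrocytes and 1.36 to 7.89 CPM in microglia. Ccdc153, also ependymal, was at 78.4 to 205.9 CPM and 0 to 1.74 CPM. Both belong to a list of 5 choroid plexus and ependyma markers, in which Folr1 was also called higher in astrocytes (log2 fold change 1.31). Ttr (-0.2) and Kl (-0.49) were below 0 and not called. Summed, the 5 markers took 0.065% to 0.121% of the counts in astrocytes and 0.0344% to 0.213% in microglia. The part of these cells in the cell type difference was not tested. Library totals ran from 10.3 M to 14.5 M counts in microglia and from 10.7 M to 15.6 M in astrocytes, and 8 abundant non-coding RNAs took 11.8% to 15.4% and 26.2% to 39.5% of them.

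The other enzymes of the route were mostly higher in astrocytes too. Of 6 other sterol enzymes 5 were called higher and 1 lower, where 36.4% of all genes were called higher and 28.2% lower. The median log2 fold change of these 6 enzymes was 2.09. Msmo1, a sterol methyl oxidase, was at 10.03 to 24.6 CPM in microglia and at 167.8 to 323.8 CPM in astrocytes (log2 fold change 4.25, SE 0.20, edgeR adjusted p = 3.11e-10). Sc5d, the desaturase whose product is the substrate of Dhcr7, rose from 5.81 to 11.9 CPM in microglia to 58.1 to 82.1 CPM in astrocytes (3.24, SE 0.21). Tm7sf2, a sterol reductase, differed by 2.35 (SE 0.42) and Nsdhl, a sterol dehydrogenase, by 1.83 (SE 0.27). Ebp, the sterol isomerase, went the other way, with 14.1 to 40.3 CPM in microglia and 6.02 to 11.5 CPM in astrocytes (-1.18, SE 0.28, edgeR adjusted p = 0.00199). Along the route the neighbours Ebp, Sc5d and Dhcr7 therefore differed in direction or size.

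**Figure D3:**
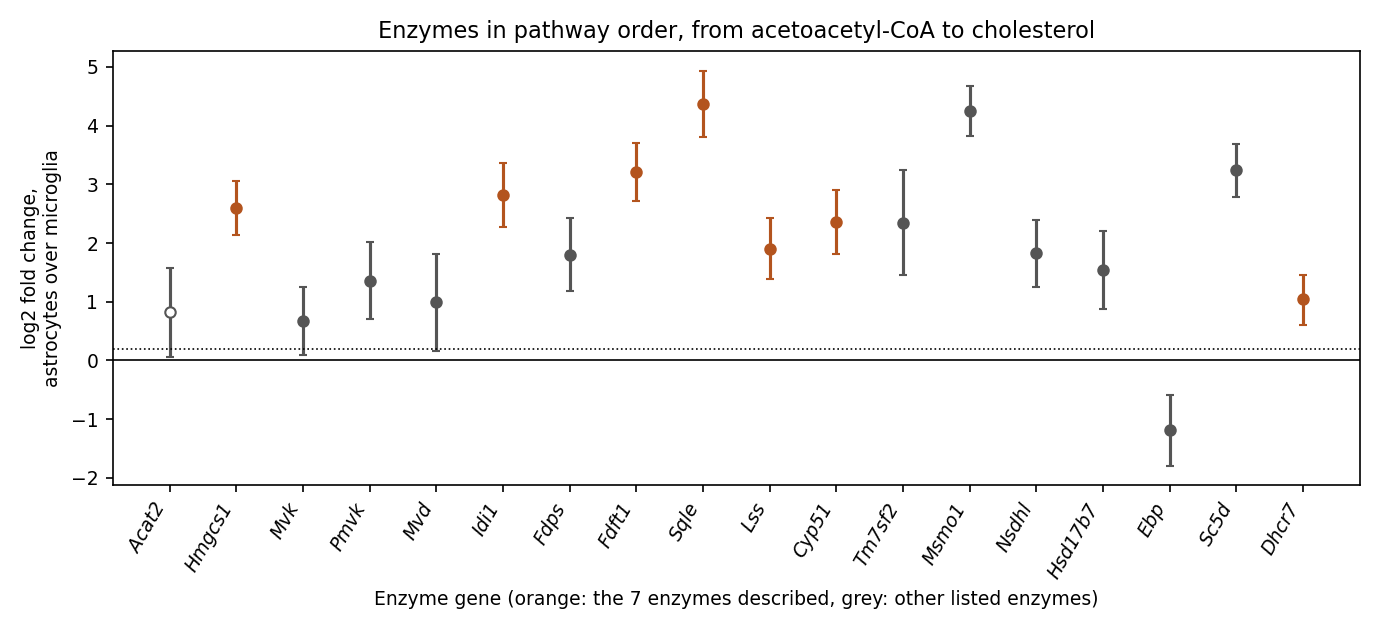
Log2 fold change of astrocytes over microglia with 95% confidence intervals for 18 enzymes in pathway order, the 7 enzymes described in orange, filled points called at an adjusted p under 0.05 and the dotted line at the median of all genes tested. The 7 run from 1.04 to 4.37, Msmo1 lies at 4.25 and Ebp alone is below 0.

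Upstream, 4 of 5 mevalonate enzymes were called higher and 1, Acat2, was not (edgeR adjusted p = 0.0548). Of all genes tested, 36.4% were called higher and 28.2% lower. The median log2 fold change of the 5 enzymes was 0.99. Fdps, which makes farnesyl diphosphate, differed by 1.80 (SE 0.29, edgeR adjusted p = 7.56e-05) and Pmvk, phosphomevalonate kinase, by 1.36 (SE 0.31). The calls of Mvd, which makes isopentenyl diphosphate (0.99, SE 0.39), and Mvk, mevalonate kinase (0.68, SE 0.27), were less firm. Mvd was called in 6 of 15 alternatives and Mvk in 5, with every change in the same direction. Each of these 4 values was below those of Idi1 (2.82) and Fdft1 (3.21), a difference that was not tested. In pathway order Fdps stands between Idi1 and Fdft1. In the isoprenoid branch, which leads to ubiquinone, dolichol and prenyl groups instead of sterols, 0 of 5 were called higher, 4 were not called and Coq2 was lower (-0.42, SE 0.17, edgeR adjusted p = 0.0411, called in 11 of 15 alternatives).

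Of 7 genes that control SREBP, 4 were called higher in astrocytes and 3 were not called. Of all genes tested, 36.4% were called higher in astrocytes and 64.6% in either direction. Srebf1 differed by 2.65 (SE 0.18), from 33.1 to 76.7 CPM in microglia to 223.5 to 358.9 CPM in astrocytes. Srebf2 differed by 2.25 (SE 0.18, edgeR adjusted p = 5.37e-08), from 24.8 to 69.9 CPM to 105.8 to 218.6 CPM. Insig1, itself a SREBP target, differed by 1.87 (SE 0.24). The call of Scap (0.54, SE 0.21) held in 8 of 15 alternatives. Among 6 fatty acid enzymes known as SREBP targets, 5 were higher and Acly, which makes cytosolic acetyl-CoA, was lower (-0.88, SE 0.14, edgeR adjusted p = 5.78e-05). The desaturase genes Scd1 (4.45, SE 0.46) and Scd2 (4.32, SE 0.24) were the highest of them, followed by the elongase Elovl6 (3.04, SE 0.41) and the fatty acid synthase Fasn (2.09, SE 0.17).

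The genes of sterol export, storage and uptake were called in both directions, as genes were over all, of which 36.4% were called higher and 28.2% lower in astrocytes. Of 9 genes of efflux, esters and oxysterols, 2 were higher in astrocytes, 5 lower and 2 not called. Apoe, the lipid carrier, was at 1009 to 1954 CPM in microglia and at 7723 to 18910 CPM in astrocytes (3.48, SE 0.31). Cyp46a1, a cholesterol hydroxylase of the brain, differed by 2.61 (SE 0.40). The sterol exporter gene Abcg1 was higher in microglia, 147.0 to 215.0 CPM against 9.51 to 30.4 CPM (-3.16, SE 0.23, edgeR adjusted p = 1.57e-08). Ch25h, which makes an oxysterol that restrains SREBP, was at 0 to 8.37 CPM in microglia and listed at 0 in 4 of the 6 astrocyte libraries, with at most 11 counts in the others. It was called lower in astrocytes. Of 7 genes of lipoprotein uptake and lysosomal sterol, 3 were higher in astrocytes, 3 lower and 1 not called. The receptor genes Lrp8 (3.87, SE 0.32) and Vldlr (2.28, SE 0.32) were higher, and the scavenger receptor gene Scarb1 (-1.59, SE 0.31) and the lysosomal lipase gene Lipa (-1.56, SE 0.23) were lower. Over all 45 listed genes beside the 7, 23 were called higher in astrocytes, 11 lower and 11 not, with a median log2 fold change of 0.68.

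**Figure D4:**
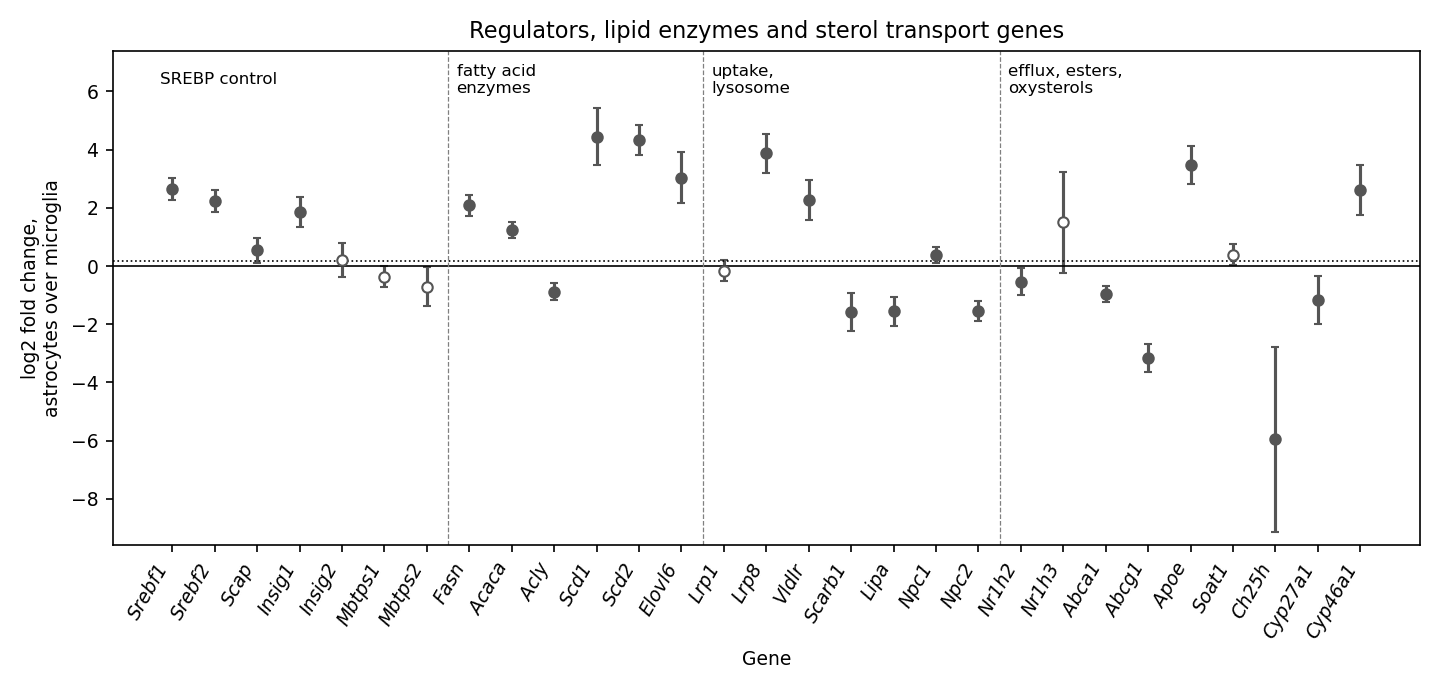
Log2 fold change of astrocytes over microglia with 95% confidence intervals for genes of SREBP control, fatty acid synthesis, uptake and efflux, with filled points called at an adjusted p under 0.05 and the dotted line at the median of all genes tested. Each of the 4 gene groups has genes on both sides of 0, with Srebf1, Srebf2, Insig1 and 5 of 6 fatty acid enzymes above it.

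No gene of these lists passed the adjusted test between KO and WT. In microglia 10 of the 45 had an unadjusted p under 0.05 and 12 had no overlap between KO and WT, set against 7.42% and 13.1% of all genes, and no member of the 7 was among them. Srebf2 had the smallest p: it was at 69.9, 44.4 and 56.4 CPM in WT and at 24.8, 26.9 and 35.3 CPM in KO, and the 3 KO libraries lay below the 3 WT libraries. Its log2 fold change was -1.0 (SE 0.24, unadjusted p = 0.00107, edgeR adjusted p = 0.439), and it was called in 1 of 16 alternatives, the one with no filter on counts (smallest adjusted p = 0.0154, largest 0.994). Lrp8 had -1.51 (SE 0.44, edgeR adjusted p = 0.542) and was likewise called only with no filter on counts (adjusted p = 0.0123). Lrp1 had -0.69 (SE 0.22, edgeR adjusted p = 0.551) and was called in none of the 16. Msmo1 had the opposite sign, with 10.03, 14.1 and 10.7 CPM in microglia WT and 24.6, 19.99 and 15.98 CPM in KO (0.78, SE 0.31, edgeR adjusted p = 0.62). Other values with no call in microglia were 0.54 for Ebp, 0.63 for Ggps1, 0.81 for Pdss1, -0.49 for Mbtps1 and -0.57 for Fasn. Scd1, at 15.9, 6.64 and 63.3 CPM in WT and at 6.01, 10.6 and 18.6 CPM in KO, had -1.28, but 0.02 without WT library 3. It too was called only with no filter (edgeR adjusted p = 0.016). Markers of other cells were also lower in KO microglia: all 8 astrocyte markers had a log2 fold change below 0 (median -0.60), 3 of them with an unadjusted p under 0.05 and none called by edgeR. These 3 were Gfap (-1.36), Slc1a2 (-0.76) and Aldh1l1 (-1.12). Of the 5 choroid plexus and ependyma markers 4 were below 0, among them Ttr (-1.21) and Kl (-1.57), with none called. Summed, the astrocyte markers took 0.0318% to 0.0698% of the counts in WT and 0.0344% to 0.0372% in KO. The part of such cells in the values of Srebf2, Lrp8, Fasn and Scd1 was not tested.

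In astrocytes 2 of 44 listed genes that were tested had an unadjusted p under 0.05 and 6 had no overlap, beside 2.37% and 8.13% of all genes. Mvd was at 6.48, 7.07 and 4.38 CPM in WT and at 13.3, 10.4 and 9.37 CPM in KO (0.99, SE 0.44, unadjusted p = 0.047, edgeR adjusted p = 0.999). Msmo1 was at 213.5, 213.4 and 167.8 CPM in WT and at 323.8, 299.9 and 217.9 CPM in KO (0.63, SE 0.24, unadjusted p = 0.0238, edgeR adjusted p = 0.999). For both genes the KO libraries were above the WT libraries, and for neither was the difference called. The interaction contrast gave 5 of 45 at an unadjusted p under 0.05 and 0 at an adjusted p under 0.05 by edgeR.

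The levels of the 7 enzymes also differed from library to library within the groups. Microglia WT library 3 was the highest of its group for 6 of the 7 and lay on average 0.51 above the group mean on the log2(CPM + 0.5) scale. Microglia KO library 3 was the highest of its group for 5 of the 7, with a mean deviation of 0.25, and microglia WT library 1 was the lowest for 5. Among astrocytes, KO library 2 was the lowest of its group for 6 of the 7, with a mean deviation of -0.29, the exception being Fdft1. With group means taken off, 18 of the 21 pairs of enzymes correlated positively over the 12 libraries, with a median Pearson r of 0.49. The highest r was 0.83, for Hmgcs1 and Sqle, and the lowest -0.16, for Idi1 and Fdft1. Within the 6 microglia libraries alone the median was 0.68, and within the 6 astrocyte libraries 0.34. These are descriptions: the values share the depth and composition of each library.

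**Figure D5:**
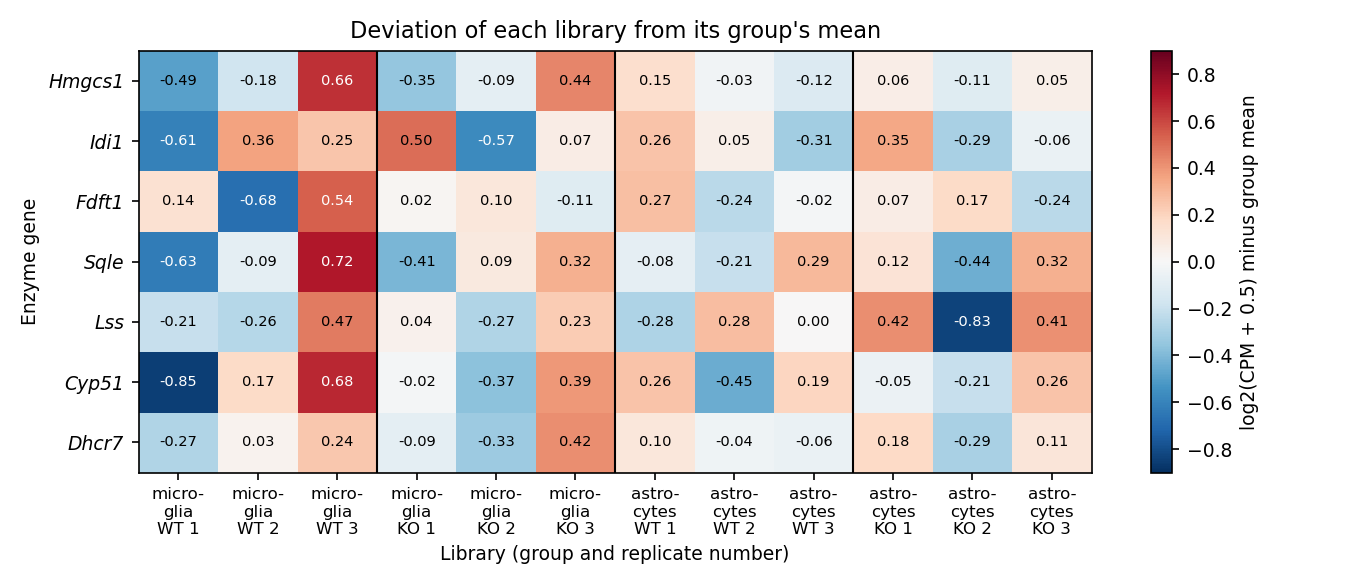
Deviation of each library from its group's mean for the 7 enzymes, as log2(CPM + 0.5), red above and blue below. Microglia WT library 3 is above its mean in all 7, and astrocyte KO library 2 is below in all but Fdft1.

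Markers of other cells moved with some of these libraries. The 8 oligodendrocyte markers took 0.0647%, 0.0287% and 0.176% of the counts in microglia WT and 0.0433%, 0.0325% and 0.082% in microglia KO, so library 3 was the highest of both groups. In astrocytes they took 0.183%, 0.0898% and 0.415% in WT and 0.125%, 0.0947% and 0.196% in KO. The 5 markers of choroid plexus and ependyma were likewise at 0.0846%, 0.106% and 0.213% in microglia WT and at 0.0344%, 0.0533% and 0.0867% in microglia KO. None of these markers was at 0 in all microglia libraries. The part of such cells in the enzyme levels was not tested. The median log2 fold change of the 7 between the cell types was 2.59 with all animals. It was 2.74 without WT animal 3 and 2.51 without KO animal 3. Leaving out WT animal 1 or 2 gave 2.46 or 2.34, and leaving out KO animal 1 or 2 gave 2.32 or 2.34. The libraries left in these fits also held markers of other cells.

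Genes whose levels followed the mean log2(CPM + 0.5) of the 7 most closely over the 12 libraries were Trps1, Npas2, Tspan7, Add3 and Xpr1, with Pearson r from 0.994 to 0.996 among 14846 genes ranked. As the libraries form 2 clusters, the cell types, a high r needs little more than a step between them: Tspan7, for example, was at 54.1 to 102.0 CPM in microglia and at 366.0 to 528.0 CPM in astrocytes. With group means taken off, the nearest genes were Pigw, Pdha1, Atp5pb, Npas2 and Seh1l, with r from 0.956 to 0.977 over the 12 libraries. Npas2, a transcription factor of the circadian clock, stood in both rankings, but in microglia it was at 0.0754 to 2.59 CPM, where few counts fix its value. These correlations are descriptions chosen as the highest of many.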

How the data were processed

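RNA of sorted microglia and astrocytes was sequenced as Nextera libraries of full-length cDNA (SMART-Seq HT chemistry), per the labels' protocols, without molecular identifiers. Estimated counts per gene symbol, not normalized, were deposited by the authors as 1 table per cell type. Per the submitters' processing notes the tools were STAR 2.7.10b, RSEM 1.3.3 and limma and the build was GRCm39. The sources used here do not give the role of each tool or the annotation. Of the values above 0, 3.44% to 5.27% per library were not whole at a tolerance of 0.001. Promoter windows come from RefSeq on another build, GRCm38.p6, and gene lengths from GENCODE M21. Some genes of the pathway are not reported here.

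Estimated counts were rounded, and CPM were computed with the library total, 10.3 M to 15.6 M counts. Counts hold amplified copies. Differences were tested with the quasi-likelihood test of edgeR 4.0.16 (R 4.3.3) with TMM factors, filterByExpr with a minimum count of 10 and Benjamini-Hochberg adjustment over all genes tested, a gene being called at an adjusted p under 0.05. KO and WT were compared in the 6 libraries of each cell type, and the cell types and the interaction in 1 fit of 12 libraries with 4 group means. With 3 animals per group, the p-values set each difference against the spread between libraries of a group. The main fit of 12 libraries took no account of the pairing by animal. Scores used log2(CPM + 0.5).

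The lists were upstream mevalonate enzymes, other sterol enzymes, the isoprenoid branch, SREBP control, fatty acid targets of SREBP, efflux with esters and oxysterols, and uptake with lysosomal sterol. Members and lists were chosen with earlier results of these data known. Named were the 7 enzymes. From each list up to 4 called genes with the largest cell type difference were named, and up to 2 with the smallest unadjusted p in each genotype comparison, some of which are left to the tables. The 5 genes nearest to the mean of the 7 by each measure were named too. Acat2, Ebp and Acly were named after their values were seen, as the exceptions of their lists. Marker lists held genes of microglia, astrocytes, oligodendrocytes and their precursors, neurons, endothelial and mural cells, choroid plexus with ependyma and other immune cells.

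Animal numbers in the labels pair each microglia library with an astrocyte library, and their deviations from group means correlated at 0.016, 0.106 and 0.137 in WT and 0.074, -0.002 and 0.109 in KO. Alternatives were DESeq2 1.42.0, its size factors in edgeR, library totals alone, no filter, a minimum count of 50, limma voom with quality weights (limma 3.58.1), thinning to the smallest library, leaving out 8 abundant non-coding RNAs, a fit of all 12 libraries, blocks, and leaving out each replicate.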

Additional observations from a re-analysis of the deposited data

How the results depend on the processing

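All 7 enzymes were called between the cell types in each of 15 alternatives, and 0 between KO and WT in each of 16. In the fits of the cell types within a genotype, Dhcr7 lost its call in the cases given with its values and the other 6 kept theirs. Counts of called genes moved more. For microglia KO against WT edgeR called 0 genes, DESeq2 41, no filter 121, all 12 libraries in 1 fit 41 and leaving out a replicate 0 to 2, and without a filter 3 listed pathway genes were called. For astrocytes DESeq2 called 4, no filter 17 and leaving out a replicate 0 to 1. For the interaction DESeq2 called 62, no filter 160 and leaving out a replicate 0 to 6. The cause was not tested.

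The sign of uncalled log2 fold changes was not stable. In microglia Fdft1 became 0.04 with voom, and Dhcr7 -0.0 in the fit of 12 libraries. In astrocytes Lss became 0.15 with voom. In the interaction Hmgcs1 became -0.11 with library totals, -0.04 without a filter and -0.03 without the abundant RNAs, Lss -0.05, -0.0 and -0.0 in the same order, and Dhcr7 0.06 with voom. With a replicate left out, KO over WT in microglia ran from -0.05 to 0.57 for Hmgcs1, -0.34 to 0.22 for Fdft1, -0.78 to 0.0 for Sqle, -0.2 to 0.19 for Lss, -0.14 to 0.58 for Cyp51 and -0.15 to 0.25 for Dhcr7. In astrocytes it ran from -0.27 to 0.05 for Idi1, -0.19 to 0.2 for Lss and -0.13 to 0.0 for Dhcr7. The interaction ran from -0.4 to 0.38 for Hmgcs1, -0.2 to 0.27 for Lss, -0.05 to 0.77 for Cyp51 and -0.29 to 0.09 for Dhcr7.

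With the animal as a block the cell type test called 10400 genes, against 11166, and all 7 enzymes. Replicate numbers are shared by different WT and KO animals. Deviations of same-numbered WT and KO libraries correlated at 0.131, 0.061 and 0.245 in microglia and at -0.022, 0.038 and 0.287 in astrocytes. Between libraries of different number the correlations ran from -0.191 to 0.067 in microglia and from -0.198 to 0.143 in astrocytes. Whether the replicate number marks shared handling was not tested. With that number as a replicate block 30 genes were called in microglia, 0 in astrocytes and none of the 7, and Fdft1 in microglia became 0.01.

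Sqle in microglia, at 21 to 86 counts, was limited by depth, and with a minimum count of 50 it was not tested between KO and WT microglia.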
